A study of Mus musculus with 2 samples.

Results

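The 8 genes described here, Shh, Foxa1, Foxa2, Lmx1a, Lmx1b, Msx1, Msx2 and Corin, form a set of floor plate and ventral midline factors. They were taken by name out of 43346 genes with an Ensembl identifier. All 8 were found in the gene tables. The libraries are total RNA sequencing of whole midbrain from mouse embryos of the B6NCrl strain at 14.5 days, 1 library from each of 2 embryos, called embryo 2 and embryo 1 after their replicate numbers. The labels name no transgene and no treatment, and the embryos were collected on different days. The design therefore implies a description of levels and of the spread between the embryos, and no test between conditions.

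The floor plate is the strip of cells along the ventral midline of the neural tube. It secretes the Sonic hedgehog protein, which patterns the tissue beside it. The midbrain floor plate differs from that of the spinal cord in that its cells divide and give rise to dopaminergic neurons. Foxa1 and Foxa2 are forkhead transcription factors of this domain, Lmx1a and Lmx1b are LIM homeodomain factors that act beside them, and Msx1 is a homeodomain repressor that acts downstream of Lmx1a in the progenitors. Several of these genes are used elsewhere too: Lmx1a, Msx1 and Msx2 also in the dorsal roof plate, and Msx1 and Msx2 in mesenchyme around the brain. Corin is a membrane protease found on floor plate cells.

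The libraries held 30185472 assigned counts in embryo 2 and 32716141 in embryo 1, of which spike-in RNAs took 3.32% and 3.15%. The spread between the embryos over 18910 genes came to a biological coefficient of variation of 26.7%. The labels describe each sample as 1 pup, yet list its sex as pooled. Xist, the RNA of the inactive X chromosome, had 61.99 TPM in embryo 2 and 0.01 TPM in embryo 1, while the Y-linked gene Eif2s3y had 0 TPM in embryo 2 and 73.0 TPM in embryo 1. Sex and embryo therefore cannot be told apart in any ratio given here. The midbrain label was set against its marker list, and all 8 midbrain markers were detected, while none of the 7 Hox genes of the hindbrain and spinal cord was. Of 6 forebrain genes, 2 were detected, Six3 with 15.8 TPM in embryo 2 and 16 TPM in embryo 1 and Emx2 with 14.6 TPM in embryo 2 and 15.5 TPM in embryo 1. All 7 genes of a list for serotonergic neurons were detected too, among them Tph2 and Slc6a4. These neurons form in the hindbrain. The highest genes of the list, Gata3 and Gata2, are not particular to them. Tph2, however, had 6.68 TPM in embryo 2 and 5.58 TPM in embryo 1, and Slc6a4 had 4.81 and 4.05 TPM. The Hox list alone does not show whether hindbrain tissue was included, and this was not tested. Both libraries held RNA of meningeal or other mesenchyme and of choroid plexus, at levels that differed widely between the embryos and are given below beside Msx1 and Msx2.

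All 8 genes gave reads in both embryos, at low levels. On the deposited TPM scale, which is normalised for transcript length and for the library and so lets genes be set side by side, the mean of both embryos ran from 0.80 TPM for Msx2 to 7.68 TPM for Msx1, with a median of 1.90 TPM. A gene was called detected at 1 TPM or more in both embryos. This held for 5 of the 8, namely Foxa1, Foxa2, Lmx1a, Lmx1b and Msx1, against 59.5% of 21474 protein-coding genes. By embryo the counts were 7 genes in embryo 2, where Msx2 was below 1 TPM, and 6 in embryo 1, where Shh and Corin were. The 8 genes together summed to 23.8 TPM in embryo 2 and 26.4 TPM in embryo 1. In whole tissue, fewer cells of a type and less RNA per cell cannot be told apart.

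The order of the genes by level differed between the embryos. In embryo 2 it ran, from the highest, Foxa2, Lmx1a, Msx1, Foxa1, Lmx1b, Shh, Corin and Msx2. In embryo 1 it ran Msx1, Lmx1a, Foxa2, Foxa1, Lmx1b, Msx2, Corin and Shh. By mean TPM, the values of Foxa2 lay above those of Foxa1 in both embryos, and those of Foxa1 above those of Lmx1b. The other neighbours in the order, Msx1 with Lmx1a, Lmx1a with Foxa2, Lmx1b with Shh, Shh with Corin and Corin with Msx2, had values that overlapped. Among protein-coding genes, the mean TPM of Msx1 lay above 55.5% of them, that of Lmx1a above 52.0% and that of Foxa2 above 51.1%. Foxa1 lay above 43.5%, Lmx1b above 41.4%, Shh above 38.5%, Corin above 38.4% and Msx2 above 37.2%. These shares count undetected genes too. Among the 12786 protein-coding genes detected in both embryos, Msx1 lay above 25.3%, Lmx1a above 19.5% and Foxa2 above 18.1%. Foxa1 lay above 5.49% of them and Lmx1b above 2.42%, while Shh, Corin and Msx2 lay above none.

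**Figure D1:**
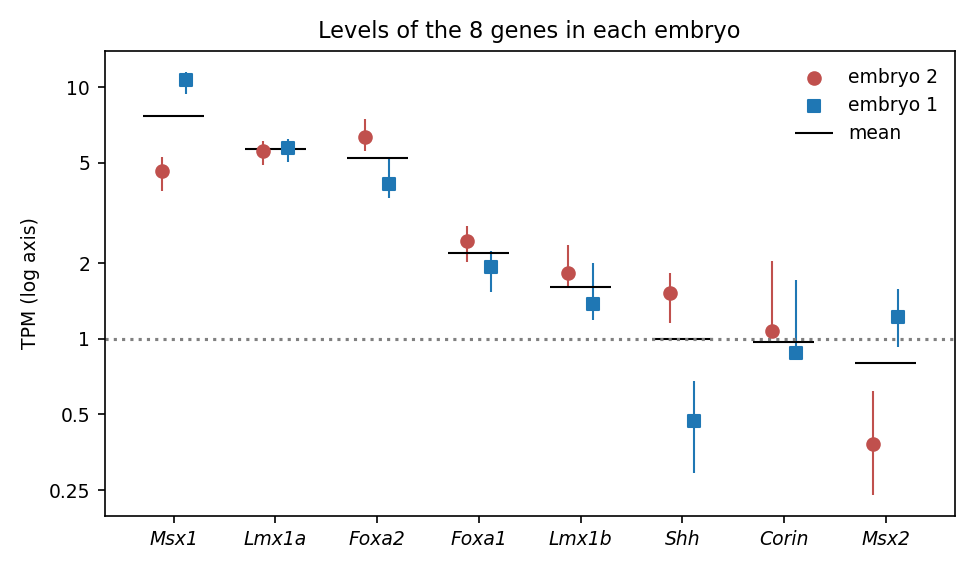
Deposited TPM of the 8 genes, with embryo 2 left of embryo 1 for each gene; points are libraries, horizontal ticks are means, vertical lines are the TPM intervals deposited by the authors, and the dotted line marks 1 TPM. Msx1 had 4.65 TPM in embryo 2 and 10.7 TPM in embryo 1, while Lmx1a had 5.59 and 5.74 TPM.

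Differences between the embryos were measured as the ratio of scaled counts, embryo 2 over embryo 1. Each ratio has a 95% exact interval that covers counting error only and holds nothing of the variation between animals. The ratio was above 1 for 6 of the 8 genes, as it was for 50.4% of 18874 genes with at least 10 summed counts. Scaled by spike-ins or taken from TPM, it was above 1 for 5 of the 8, with Lmx1a below 1, beside 39.7% and 36.7% of all genes. The median log2 ratio of the 8 was 0.47, beside a median of 0.00 over the same 18874 genes. A fixed rule of size asked for a ratio of at least 2-fold with at least 100 counts summed over both embryos. Of the 6 members with that many counts, Msx1 alone passed it, lower in embryo 2, where 4.85% of 14011 genes passed in either direction and 3.4% did so lower in embryo 2. With a fold of 1.5, 2 of these 6 passed, Foxa2 and Msx1, beside 14.3% of genes. With 10 counts asked for and a fold of 2, 3 of the 8 passed, Shh, Msx1 and Msx2, beside 11.7% of genes. The counting interval left out 1 for 7 of the 8 genes, against 55.1% of all 18874 genes and 47.9% of the genes with 50 to under 1000 summed counts.

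**Figure D2:**
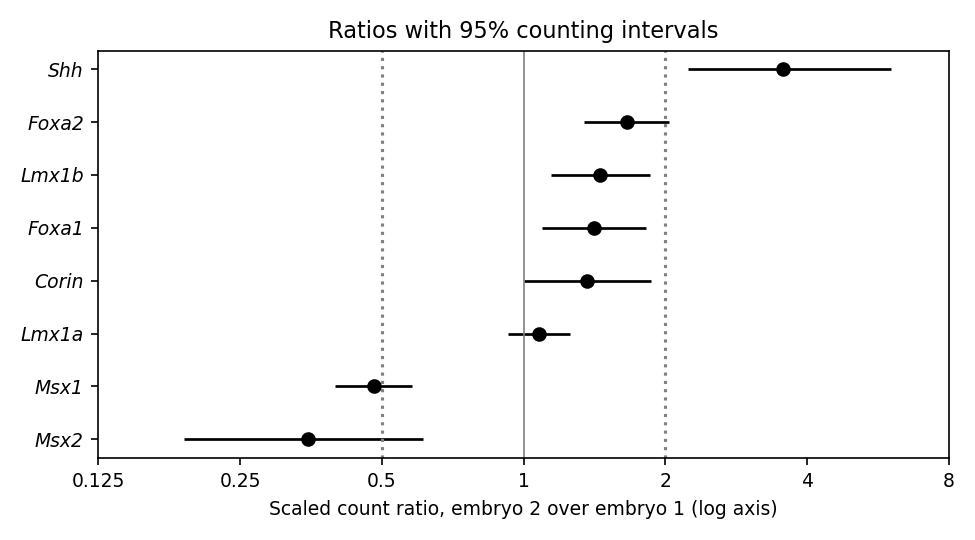
Ratio of scaled counts, embryo 2 over embryo 1, on a log axis; points are the 8 genes and bars their 95% counting intervals. Shh is at 3.56, Foxa1, Foxa2, Lmx1b and Corin lie between 1.36 and 1.65, Lmx1a is at 1.08, and Msx1 and Msx2 are at 0.480 and 0.349.

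Shh encodes the secreted ligand of the pathway, and its transcripts were rare. The gene (ENSMUSG00000002633) lies at chr5:28456815-28467256 on the minus strand of GRCm38, the mm10 assembly. It had 75.35 expected counts (1.52 TPM) in embryo 2 and 23.47 (0.47 TPM) in embryo 1, a mean of 0.995 ± 0.742 TPM (SD, n = 2). The authors' deposited TPM interval was 1.16 to 1.83 in embryo 2 and 0.292 to 0.678 in embryo 1, and these do not overlap. The scaled ratio was 3.56 (95% counting interval 2.24 to 6.04). Among 2584 genes with 50 to under 200 summed counts, 0.619% had a ratio at least as high. Shh missed the rule of size by its depth, with 98.82 summed counts where 100 were asked for.

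Shh was the member with fractional counts, and its annotation is shared with other genes. Exons of Shh overlap 446 exon bases of 9530036O11Rik and 361 of Gm26894, both transcribed from the opposite strand, and whether the libraries kept strand is not stated in the labels, so reads of the pair cannot be told apart there. The antisense gene 9530036O11Rik held 4.0 counts in embryo 2 and 2.08 in embryo 1. Gm26894 held 9.65 counts in embryo 2 and 9.46 in embryo 1. When all 3 genes were summed, a setting added after the values were seen, the counts were 89.0 in embryo 2 and 35.01 in embryo 1, and the ratio was 2.82 (1.89 to 4.29). The other 7 members had whole counts in both embryos.

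Other Hedgehog pathway genes with at least 10 summed counts, from the related ligand Dhh to the inhibitor Hhip, had ratios between 0.504 and 1.34. Of 16 other Hedgehog pathway genes, 13 were detected and 15 had at least 10 summed counts. Of these 15, 3 had a ratio above 1 and 12 below, beside 50.4% of all genes above 1. By spike-ins and by TPM 3 were again above 1, beside 39.7% and 36.7% of all genes. None of the 13 with at least 100 counts passed the 2-fold rule, and the median log2 ratio was -0.41. Ptch1, the receptor and also a target of the pathway, had 11.18 TPM in embryo 2 and 11.16 TPM in embryo 1, a ratio of 1.09 (1.01 to 1.17). The 3 genes of the list with the highest levels were Sufu, a negative regulator of the Gli factors, and Gas1 and Boc, co-receptors. Sufu had 16.9 TPM in embryo 2 and 22.6 TPM in embryo 1, Gas1 10.8 and 19.5 TPM, and Boc 11.1 and 18.3 TPM. Gli1, a transcriptional target of the pathway named here after its values were seen, had 0.62 TPM in embryo 2 and 0.78 TPM in embryo 1, with a ratio of 0.878 (0.571 to 1.34).

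Foxa2 was the highest of the 8 in embryo 2. Foxa2 (ENSMUSG00000037025, chr2:148042877-148046969, minus strand) is needed to form the floor plate and can open closed chromatin as a pioneer factor. It had 233 counts (6.35 TPM) in embryo 2 and 156 counts (4.11 TPM) in embryo 1, a mean of 5.23 ± 1.58 TPM (SD, n = 2). The ratio was 1.65 (1.35 to 2.04). It passed a looser 1.5-fold rule, as did 5.67% of genes with at least 100 counts in the direction of embryo 2.

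Foxa1, its close relative, was lower in both embryos. Foxa1 (ENSMUSG00000035451, chr12:57540628-57546916, minus strand) overlaps with Foxa2 in function in midbrain progenitors. It had 145 counts (2.45 TPM) in embryo 2 and 114 counts (1.93 TPM) in embryo 1, a mean of 2.19 ± 0.368 TPM (SD, n = 2), and its ratio was 1.41 (1.10 to 1.82). On the TPM scale Foxa2 was 2.59 times Foxa1 in embryo 2 and 2.13 times in embryo 1. Both embryos thus had the same order of the pair.

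Foxa2 has more than 1 start site. The transcript Foxa2-202 carried 73.9% of the gene's TPM in embryo 2 and 80.7% in embryo 1. Foxa2-201, which starts further upstream, carried 21.1% in embryo 2 and 19.3% in embryo 1. The short noncoding Foxa2-203 took 5.04% in embryo 2 and 0% in embryo 1, and Foxa2-204 was at 0 in both. By the posterior mean that the authors also deposited, the share of Foxa2-202 was 59.1% in embryo 2 and 63.0% in embryo 1, so its lead held in both estimates and its size did not. The deposited TPM intervals of these transcripts overlap within each embryo, with 1.58 to 5.85 for Foxa2-202 and 0.164 to 4.05 for Foxa2-201 in embryo 2, and 1.25 to 4.15 and 0.0502 to 2.51 in embryo 1.

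The 250 bases before the starts of Foxa2-202 and Foxa2-201, the transcripts with the larger shares, and those before the RefSeq start of Foxa1, are shown. They differ in base composition and in simple promoter motifs. RefSeq windows on GRCm38.p6 were matched for 7 of the 8 genes, all but Shh, with 9 windows in all. The motifs searched on both strands were TATAAA (the TATA box), CCAAT (the CCAAT box), TGTTTAC (a forkhead core), TAATTA (a homeodomain core) and GGGTGGTC (a Gli core), and no matches overlapped in the windows printed. The windows are chr2:148045949-148046198 for Foxa2-202, chr2:148046970-148047219 for Foxa2-201 and chr12:57546122-57546361 for Foxa1, all minus strand. The Foxa1 window is 240 bases long, since 10 bases that lie in its own annotated exon were left out. It precedes the start of Foxa1-201 at 57546121 but lies inside the annotated gene, which begins further upstream at 57546916. Capitals mark motif matches.
Foxa2-202: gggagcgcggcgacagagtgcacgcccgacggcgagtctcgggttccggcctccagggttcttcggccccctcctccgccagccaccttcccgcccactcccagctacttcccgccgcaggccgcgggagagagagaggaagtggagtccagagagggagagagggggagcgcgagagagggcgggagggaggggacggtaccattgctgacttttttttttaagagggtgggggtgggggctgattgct
Foxa2-201: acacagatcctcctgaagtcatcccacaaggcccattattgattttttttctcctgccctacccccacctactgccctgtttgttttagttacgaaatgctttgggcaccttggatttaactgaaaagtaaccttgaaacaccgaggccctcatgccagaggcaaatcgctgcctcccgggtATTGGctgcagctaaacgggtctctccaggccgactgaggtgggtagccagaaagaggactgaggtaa
Foxa1: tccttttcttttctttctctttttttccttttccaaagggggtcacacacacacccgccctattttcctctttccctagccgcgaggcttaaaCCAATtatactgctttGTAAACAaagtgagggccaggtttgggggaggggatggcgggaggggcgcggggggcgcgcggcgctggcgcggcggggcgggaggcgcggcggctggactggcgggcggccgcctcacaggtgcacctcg
The window of Foxa2-202, the transcript with the largest estimated share of the TPM, had 67.2% G and C and none of the 5 motifs. The window of Foxa2-201 had 50.8% G and C and 1 CCAAT box. That of Foxa2-203, not printed, had 54.4% G and C and 1 TATA box, the one TATA box in the 9 windows. The Foxa1 window had 1 CCAAT box and 1 forkhead core. Of 32851 RefSeq promoter windows of 250 bases, 33.8% held a CCAAT box and 3.17% a forkhead core. TATA boxes were in 12.4%, homeodomain cores in 4.84% and Gli cores in 0.703%, and the Gli core was in none of the 9 windows.

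**Figure D3:**
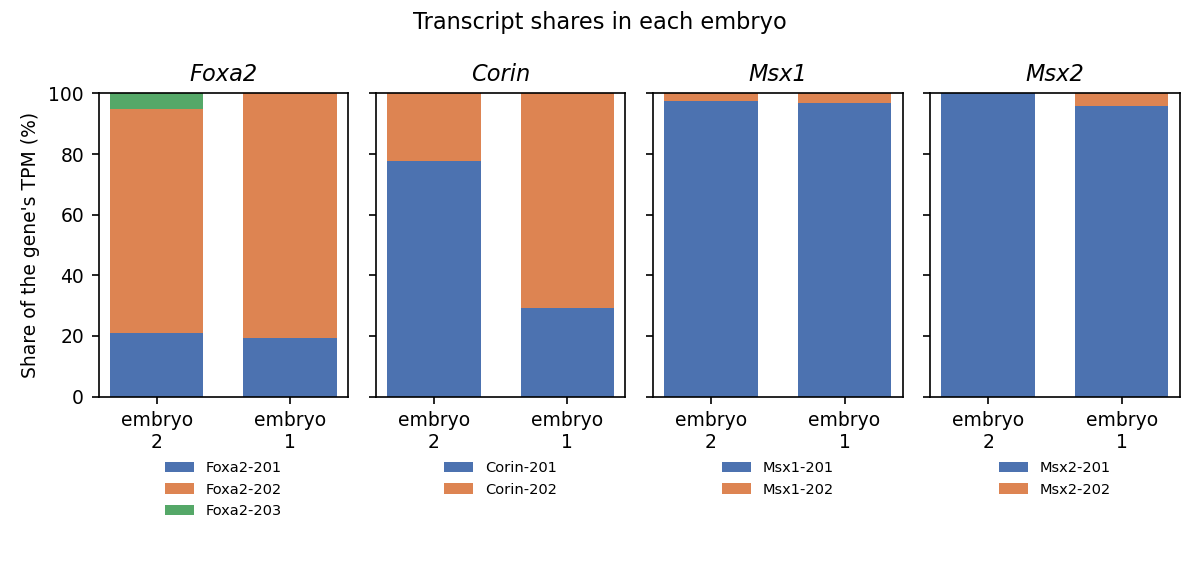
Share of the gene's TPM taken by each annotated transcript of Foxa2, Corin, Msx1 and Msx2, in percent, with the bar of embryo 2 left of that of embryo 1. Foxa2-202 led Foxa2 in both embryos with 73.9% and 80.7%, while Corin-201 took 77.6% of Corin in embryo 2 and 29.2% in embryo 1.

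Lmx1a differed least between the embryos. Lmx1a (ENSMUSG00000026686, chr1:167689237-167848741, plus strand) specifies midbrain dopaminergic progenitors and, dorsally, the roof plate. It had 347 counts (5.59 TPM) in embryo 2 and 357 counts (5.74 TPM) in embryo 1, a mean of 5.67 ± 0.106 TPM (SD, n = 2). The ratio was 1.08 with an interval of 0.926 to 1.25, the one interval among the 8 that held 1. Its direction depends on the scaling, since other scalings put the ratio between 0.974 and 1.08.

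Lmx1b was the lower of the LIM pair. Lmx1b (ENSMUSG00000038765, chr2:33560965-33640511, minus strand) acts with Lmx1a in the floor plate, at the isthmus and in serotonergic neurons. It had 163 counts (1.82 TPM) in embryo 2 and 124 counts (1.38 TPM) in embryo 1, a mean of 1.60 ± 0.311 TPM (SD, n = 2), with a ratio of 1.46 (1.15 to 1.85). On the TPM scale Lmx1a was 3.07 times Lmx1b in embryo 2 and 4.16 times in embryo 1. Lmx1a-201 and Lmx1b-201 each carried 100% of their gene's TPM in both embryos. The posterior mean gave Lmx1a-201 79.9% in embryo 2 and 90.4% in embryo 1.

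The coding sequences of Lmx1a and Lmx1b are most alike in and beside the homeobox. The annotated and effective lengths in the files differ by 99 bases, as reads of 100 bases would give. The pair of 100-base windows most alike is shown because it is where a read is hardest to assign. The windows, from GENCODE M21 transcripts on GRCm38, are bases 683 to 782 of Lmx1a-201, with genome ends at chr1:167832830-167840937 on the plus strand, and 686 to 785 of Lmx1b-201, with ends at chr2:33566703-33566949 on the minus strand; both span an intron. Capitals mark the differing bases.
Lmx1a: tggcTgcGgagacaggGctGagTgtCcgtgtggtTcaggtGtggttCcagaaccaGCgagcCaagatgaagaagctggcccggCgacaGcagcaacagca
Lmx1b: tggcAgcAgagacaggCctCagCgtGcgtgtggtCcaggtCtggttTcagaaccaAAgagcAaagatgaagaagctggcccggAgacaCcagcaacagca
They had 86 identical bases and 14 that differed, with a longest identical run of 21 bases.

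A divergent RNA gene starts next to Lmx1b. The antisense gene C130021I20Rik lies at chr2:33641193-33646354 on the plus strand. It begins 682 bases upstream of the GENCODE M21 start of Lmx1b and 95 bases from the RefSeq start of Lmx1b. Its level was higher than that of Lmx1b, with 366 counts (6.83 TPM) in embryo 2 and 208 counts (4.24 TPM) in embryo 1, a ratio of 1.95. Lmx1b at 1.46 and this neighbour were both higher in embryo 2 by value, and neither passed the 2-fold rule. The RefSeq window before the start of Lmx1b, chr2:33641099-33641348 on the minus strand, is shown because the pair shares it. Capitals mark the 156 bases that lie in the first exon of C130021I20Rik on the other strand.
Lmx1b: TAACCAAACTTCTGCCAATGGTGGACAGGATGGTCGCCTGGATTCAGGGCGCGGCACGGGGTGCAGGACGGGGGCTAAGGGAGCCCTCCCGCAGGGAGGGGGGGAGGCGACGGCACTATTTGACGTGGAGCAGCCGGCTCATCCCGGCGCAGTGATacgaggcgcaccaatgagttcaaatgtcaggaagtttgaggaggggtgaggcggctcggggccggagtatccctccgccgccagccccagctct
The window had 65.2% G and C and 2 CCAAT boxes, both counted over the whole window. It held no TATA box and no homeodomain core.

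Msx1 was the member past the rule of size, and it was lower in embryo 2. Msx1 (ENSMUSG00000048450, chr5:37820485-37824583, minus strand) encodes a homeodomain repressor of midbrain floor plate progenitors that is also a target of BMP signalling. It had 163 counts (4.65 TPM) in embryo 2 and 376 counts (10.7 TPM) in embryo 1, a mean of 7.68 ± 4.28 TPM (SD, n = 2). The authors' deposited TPM interval was 3.88 to 5.26 in embryo 2 and 9.42 to 11.5 in embryo 1, and these do not overlap. Msx1 was 2.08-fold lower in embryo 2 (1.73 to 2.52), a log2 ratio of -1.06. Among 2894 genes with 300 to under 1000 summed counts, 5.32% had a ratio at or below that of Msx1.

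Msx2, a related repressor of the roof plate, skull and other mesenchyme, leaned the same way at lower depth. Msx2 (ENSMUSG00000021469, chr13:53466884-53473074, minus strand) had 17 counts (0.38 TPM) in embryo 2 and 54 counts (1.22 TPM) in embryo 1, a mean of 0.80 ± 0.594 TPM (SD, n = 2). It was 2.87-fold lower in embryo 2 (1.64 to 5.28), with 71 summed counts, too few for the rule. Among genes with 50 to under 200 summed counts, 7.12% had a ratio at or below that of Msx2. On the TPM scale Msx1 was 12.2 times Msx2 in embryo 2 and 8.77 times in embryo 1. Msx3, the third member of the family, which is expressed in the dorsal neural tube and was named after its values were seen, had 3.99 TPM in embryo 2 and 4.69 TPM in embryo 1, with a ratio of 0.936 (0.753 to 1.16).

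The coding sequences of Msx1 and Msx2 are most alike in the homeobox. The windows shown are bases 560 to 659 of Msx1-201 (chr5:37821511-37821610, minus strand) and 470 to 569 of Msx2-201 (chr13:53468404-53468503, minus strand), and capitals mark the differing bases.
Msx1: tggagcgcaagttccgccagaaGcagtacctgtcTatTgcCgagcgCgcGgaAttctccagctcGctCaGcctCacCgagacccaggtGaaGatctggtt
Msx2: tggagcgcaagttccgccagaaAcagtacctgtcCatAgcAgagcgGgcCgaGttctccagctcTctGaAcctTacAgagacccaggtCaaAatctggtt
They had 86 identical bases and 14 that differed, and the longest identical run was 22 bases. Msx1-201 carried 97.4% of the gene's TPM in embryo 2 and 96.7% in embryo 1, so the same transcript led in both. For Msx2-201 these shares were 100% in embryo 2 and 95.9% in embryo 1.

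The window before the start of Msx1, chr5:37824586-37824835 on the minus strand, is shown as that of the member with the called difference, with its CCAAT boxes in capitals.
Msx1: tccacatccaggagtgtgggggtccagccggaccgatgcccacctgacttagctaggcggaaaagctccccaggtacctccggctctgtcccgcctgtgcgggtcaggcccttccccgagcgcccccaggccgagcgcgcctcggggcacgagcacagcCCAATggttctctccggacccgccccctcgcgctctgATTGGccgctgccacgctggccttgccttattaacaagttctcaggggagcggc
It had 68.0% G and C and 2 CCAAT boxes, and no homeodomain or forkhead core. The RefSeq window of Msx2 held 1 CCAAT box and 1 homeodomain core, but it lies in an annotated exon of Msx2 itself downstream of the GENCODE M21 start.

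Markers of tissues that also use Msx1 and Msx2 differed between the embryos in the same direction. Of 13 mesenchyme markers, 12 had a ratio below 1, where 50.4% of all genes were above 1. All 9 with at least 100 summed counts passed the 2-fold rule lower in embryo 2, against the 3.4% of all genes given above. Several of the 9, Col1a1, Dcn and Lum among them, had under 100 counts in embryo 2 and met the filter through embryo 1. The filter and the direction are therefore not independent. The list summed to 12.7 TPM in embryo 2 and 411 TPM in embryo 1, with a median log2 ratio of -3.77, and none of its genes was at 0 in both embryos. Col3a1, a collagen of connective tissue, had 2.81 TPM in embryo 2 and 187 TPM in embryo 1. Lum, a proteoglycan of the same tissue, had 3 counts in embryo 2 and 1044 in embryo 1, 314-fold lower in embryo 2 (107 to 1526). The exception by direction, named after its values were seen, was Dlx5, with 15 counts in embryo 2 and 5 in embryo 1.

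The choroid plexus and roof plate lists leaned the same way. All 7 choroid plexus markers had a ratio below 1, and they summed to 10.4 TPM in embryo 2 and 113 TPM in embryo 1, with a median log2 ratio of -2.41 and none at 0 in both embryos. Among the 3 with at least 100 counts the median was -0.35, and Ttr made up most of the sum in embryo 1. Of these 3, Ttr, the thyroid hormone carrier of the choroid plexus, passed the rule, with 0.37 TPM in embryo 2 and 96.3 TPM in embryo 1. Of 16 roof plate genes, 15 had at least 10 summed counts. Of these 15, 3 had a ratio above 1 and 12 below, beside 50.4% of all genes above 1. By spike-ins and by TPM 3 were again above 1, beside 39.7% and 36.7% of all genes. Of 12 with at least 100 summed counts, 6 passed the rule lower in embryo 2, beside 3.4% of all genes. None passed it higher, as 1.45% of all genes did. Several of the 6, Bmp5, Bmp6 and Wnt1 among them, had under 100 counts in embryo 2 and met the filter through embryo 1. Here too the filter and the direction are not independent. The list summed to 94.99 TPM in embryo 2 and 154 TPM in embryo 1, with a median log2 ratio of -1.08 and no gene at 0 in both. The ligand Bmp7 had 2.43 TPM in embryo 2 and 10.6 TPM in embryo 1, 3.94-fold lower in embryo 2 (3.31 to 4.71). Bmp5 was 6.89-fold lower in embryo 2 (4.64 to 10.6) and Bmp6 4.88-fold lower (3.22 to 7.66). The part of these tissues in the values of Msx1 and Msx2 was not tested.

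The roof plate list was not uniform, however. Wls, which exports Wnt proteins and had the highest level of the list, had 37.2 TPM in embryo 2 and 66.0 TPM in embryo 1. The transcription factor Zic1 had 14.5 TPM in embryo 2 and 14.3 TPM in embryo 1, and Gdf10 had 9.04 TPM in embryo 2 and 8.30 TPM in embryo 1. Lmx1a, which the roof plate also uses, had the values of 5.59 and 5.74 TPM given above. Relative to Msx1 on the TPM scale, Foxa2 was 1.37 times as high in embryo 2 and 0.384 times in embryo 1, and Lmx1a 1.2 times in embryo 2 and 0.536 times in embryo 1.

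**Figure D4:**
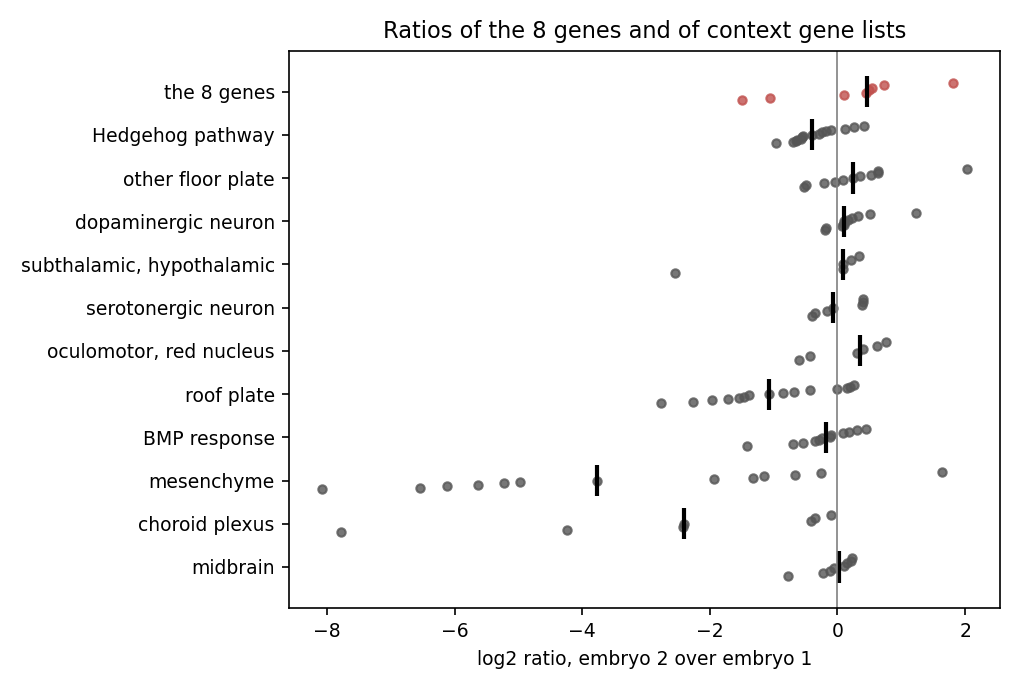
Log2 ratio of scaled counts, embryo 2 over embryo 1, for genes with at least 10 summed counts; points are genes and vertical bars the list medians. The 8 genes have a median of 0.47, with Msx1 and Msx2 below 0, and the roof plate, choroid plexus and mesenchyme lists have medians of -1.08, -2.41 and -3.77.

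Corin encodes a membrane protease that cleaves the precursor of atrial natriuretic peptide in the heart and marks the surface of floor plate cells. Corin (ENSMUSG00000005220, chr5:72300025-72504473, minus strand) had 96 counts (1.07 TPM) in embryo 2 and 78 counts (0.88 TPM) in embryo 1, a mean of 0.975 ± 0.134 TPM (SD, n = 2). The ratio was 1.36, and its interval of 1.00 to 1.86 reached down to 1 within rounding. The authors' posterior mean put Corin at 1.5 TPM in embryo 2 and 1.25 TPM in embryo 1, above the 1 TPM line in both. Its level per length is therefore less certain than its counts, which were whole.

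Corin was the member whose leading transcript differed between the embryos. Corin-201 took 77.6% of its TPM in embryo 2 and 29.2% in embryo 1, while Corin-202 took 22.4% in embryo 2 and 70.8% in embryo 1. The deposited TPM intervals of Corin-201 were 0.240 to 1.06 in embryo 2 and 0.0456 to 0.590 in embryo 1, and they overlap. These intervals do not separate the embryos. The other 5 annotated Corin transcripts were at 0 TPM in both embryos, but not by the posterior mean. By that estimate Corin-201 took 44.3% in embryo 2 and 23.4% in embryo 1, and Corin-202 took 21.5% and 39.5%. Corin-205, one of the other 5, took 15.4% in embryo 2 and 12.9% in embryo 1. The leading transcript of each embryo was thus the same in both estimates, and the sizes of the shares were not. Corin shares 147 exon bases with the antisense gene Gm20647, which had 0 counts in both.

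Among the genes of the natriuretic peptide system, Nppa, the precursor that Corin cleaves in the heart, had 3.17 TPM in embryo 2 and 2.32 TPM in embryo 1, a ratio of 1.51 (0.941 to 2.41). The highest of the list was the receptor Npr2, with 12.7 TPM in embryo 2 and 12.3 TPM in embryo 1. Nppb was listed at 0 in both. Of the 8 genes in the list, 7 had at least 10 summed counts. Of these 7, 3 had a ratio above 1 and 4 below, beside 50.4% of all genes above 1. None of the 3 with at least 100 counts passed the rule.

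Other floor plate genes and the neurons that arise from this domain give the setting of the 8 genes. Of 12 other floor plate genes, 11 had at least 10 summed counts, with a median log2 ratio of 0.25. Of these 11, 7 had a ratio above 1 and 4 below, beside 50.4% of all genes above 1. None of the 9 with at least 100 counts passed the rule in either direction. The median was 0.09 over those 9, and the summed level of the list was 108 TPM in embryo 2 and 126 TPM in embryo 1, so the list had no single direction. The 4 genes with the highest levels, secreted proteins and a sulfatase of the cell surface, all had ratios below 1. Spon1, a matrix protein secreted by the floor plate, had 28.3 TPM in embryo 2 and 32.2 TPM in embryo 1. Its ratio was 0.973 (0.928 to 1.02), with an interval that held 1. Sulf1, the sulfatase, had 21.04 TPM in embryo 2 and 31.5 TPM in embryo 1, a ratio of 0.709. The guidance cue Slit2 had 20.8 TPM in embryo 2 and 24.1 TPM in embryo 1, a ratio of 0.862, and the ligand Wnt5a had 9.51 TPM in embryo 2 and 13.8 TPM in embryo 1, a ratio of 0.693. Ntn1, next by level, had 9.51 TPM in embryo 2 and 6.59 TPM in embryo 1, a ratio of 1.56 (1.41 to 1.73). Ferd3l, a bHLH factor of the ventral midline, had the highest ratio of the list, 4.43 (1.61 to 15.1). That ratio came from 20 counts in embryo 2 and 5 in embryo 1. Both Ntn1 and Ferd3l were named after their values were seen.

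Of 6 factors of dopaminergic progenitors, 2 had a ratio above 1 and 4 below, beside 50.4% of all genes above 1. The median log2 ratio was -0.39. Of these 6, Otx2, Ferd3l and Wnt1 also stand in the midbrain, other floor plate and roof plate lists. Wnt1, a ligand of the floor plate edge, the isthmus and the roof plate, passed the rule, 2.93-fold lower in embryo 2 (2.08 to 4.21). It had 1.01 TPM in embryo 2 and 3.28 TPM in embryo 1, and 3.4% of all genes passed in that direction. With 44 counts in embryo 2 and 143 in embryo 1, Wnt1 met the filter through embryo 1. All 11 genes of dopaminergic neurons were detected, 9 of them with a ratio above 1, beside the 50.4% of all genes, and the median log2 ratio was 0.11. That split depends on the scaling, with 5 of the 11 above 1 by spike-ins and 6 by TPM. Th, which makes the dopamine precursor L-DOPA, had 26.8 TPM in embryo 2 and 20.9 TPM in embryo 1. The nuclear receptor Nr4a2 had 18.6 TPM in embryo 2 and 25.01 TPM in embryo 1. Drd2, the dopamine autoreceptor, passed the rule with 4.83 TPM in embryo 2 and 2.27 TPM in embryo 1, a ratio of 2.36 (1.73 to 3.23), where 1.45% of all genes passed in that direction. The summed level of the list was 122 TPM in embryo 2 and 123 TPM in embryo 1. The neuronal list thus stood well above the 8 midline genes, whose sum was 23.8 TPM in embryo 2 and 26.4 TPM in embryo 1.

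Foxa1, Foxa2 and the Lmx1 genes are also expressed by neurons of the subthalamic and hypothalamic region, and Lmx1b by serotonergic neurons of the hindbrain. Of 5 subthalamic and hypothalamic genes, 4 had a ratio above 1, beside 50.4% of all genes, but 2 did by spike-ins or by TPM. None of the 5 passed the rule. Barhl1 had a scaled ratio of 1.06, with 45.6 TPM in embryo 2 and 49.9 TPM in embryo 1. All 7 genes of the serotonergic list were detected, none passed the rule, and their median log2 ratio was -0.07. That median mixes directions, with 3 ratios above 1 and 4 below, beside 50.4% of all genes above 1. Gata3 and Gata2, which are not particular to these neurons, had ratios of 0.785 and 0.761, while Tph2 and Slc6a4 had 1.33 and 1.31. Tph2, the enzyme of serotonin synthesis, had 6.68 TPM in embryo 2 and 5.58 TPM in embryo 1. The part of these neurons in the levels of the 8 genes was not tested.

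**Figure D5:**
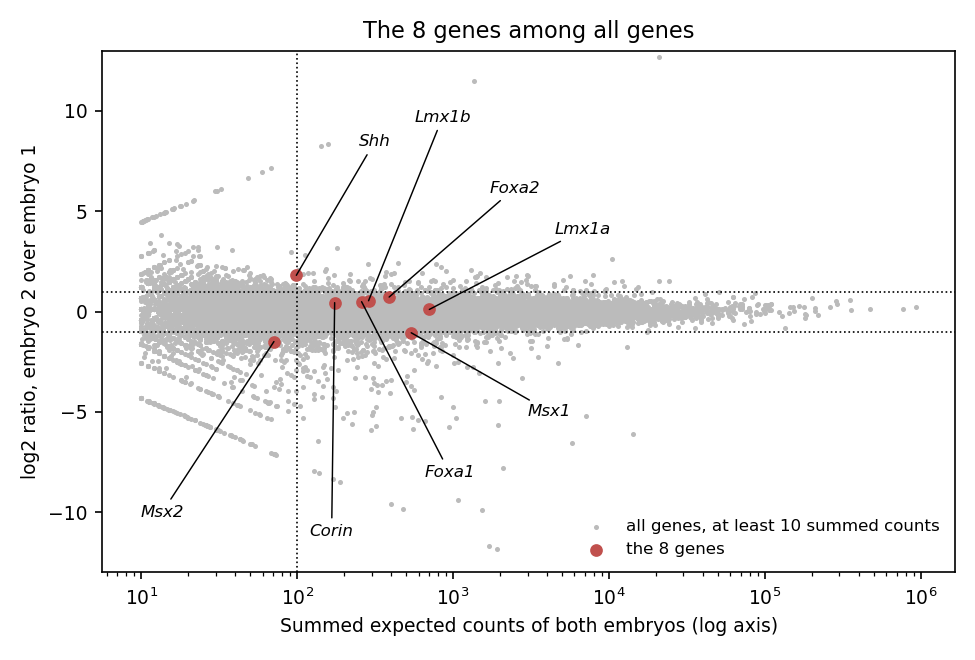
Log2 ratio of scaled counts, embryo 2 over embryo 1, against summed expected counts of both embryos on a log axis for 18874 genes (grey) and the 8 genes (red); dotted lines mark the 2-fold and the 100-count limits. Msx1 lies just past the lower line, Shh lies above the upper line just short of 100 counts, and Msx2 lies below the lower line at 71 counts.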

How the data were processed

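Total RNA longer than 200 nt from 1 midbrain per embryo (10 ng input, mirVana extraction, spike-ins added, per the labels' protocols) was sequenced. Per the deposited text records, reads were aligned to mm10 with GENCODE M4; the quantifier is not given. The deposited gene and transcript tables hold expected counts, TPM, FPKM, the percent of a gene's TPM in each transcript, and, per the file headers, posterior means, with TPM intervals of unstated level. These deposited intervals and posterior SDs are treated as a signal that is never negative. Of 69691 rows, 26248 with numeric identifiers (14 counts in embryo 2, 6 in embryo 1) and 96 spike-ins stayed out of the scaling. GENCODE M21 symbols matched 42462 Ensembl rows.

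Expected counts, rounded for scaling only, were scaled with TMM in edgeR 4.0.16, and ratios were computed from unrounded values with a prior count of 0.5 for log2. Exact conditional binomial intervals were computed in scipy 1.17.1. They were checked on counts simulated with counting error alone, which checks the computation and not the cover of variation between embryos. Reads were not counted as molecules, so intervals and the floor of 3 counts cover counting error only. With 1 group of 2 libraries no test was run. Alternative scalings (DESeq2 1.42.0 size factors, totals, spike-ins, TPM), filters and folds were tried. The 8 genes and the lists were chosen with earlier results of these data known. Named genes were the 8, the 4 highest by mean TPM of each list at most, up to 3 past the rule, and annotated neighbours; others are said to have been chosen after their values were seen.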

Additional observations from a re-analysis of the deposited data

How the results depend on the processing

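Of the 8 genes, 1 passed the 2-fold rule under TMM, under the 3 other scalings of counts and by TPM; 2 passed with a fold of 1.5, namely Foxa2 and Msx1, and 3 with a minimum of 10 summed counts, namely Shh, Msx1 and Msx2. Detected genes numbered 5, but 3 at a TPM of 2 and 6 at a TPM of 0.5 or by the posterior mean; from single embryos they ranged from 6 to 7. The median level of 1.90 TPM was 1.16 in FPKM, and 1.66 to 2.14 TPM from single embryos. In all 49 alternatives, single ratios moved by less than their counting interval, although Lmx1a changed direction. Ratios that rest on few counts, those of Shh and Msx2, ranged from 3.23 to 3.56 and from 0.311 to 0.373 over the planned settings; with its overlapping genes Shh was at 2.82. The interval of Corin held 1 under the 3 other scalings of counts, which left 6 genes whose interval left out 1. Scaling by spike-ins and by TPM moved the median of all genes by -0.11 and -0.13 on the log2 scale. Of 48 alternative list values, 4 changed sign. Median and mean log2 ratio differed in sign for the subthalamic (0.09 and -0.36), serotonergic (-0.07 and 0.03) and midbrain (0.02 and -0.06) lists. The oculomotor median fell below 0 at 100 counts (-0.01). Changes of size alone are not in that count, such as the choroid plexus median of -2.41, which was -0.35 at 100 counts. No paired analysis was possible because the libraries form 1 group. Depth limits Shh, Msx2 and Corin most.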

Other observations

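The LIM domain factors bind shared cofactors, and these were abundant beside Lmx1a and Lmx1b. All 5 genes of that list were detected. Ldb1, the cofactor that bridges LIM homeodomain proteins, had 116 TPM in embryo 2 and 96.1 TPM in embryo 1, a ratio of 1.33 (1.27 to 1.39). Lhx1, another LIM homeodomain factor, had 39.0 TPM in embryo 2 and 42.9 TPM in embryo 1, and Lhx5 had 36.2 and 28.2 TPM. None of the 5 passed the 2-fold rule.

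Among 12 genes of BMP reception and response, 4 had a ratio above 1 and 8 below, beside 50.4% of all genes above 1. By spike-ins and by TPM, 3 of the 12 were above 1, beside 39.7% and 36.7% of all genes. The median log2 ratio of the list was -0.18, against the 2.08-fold lower Msx1 in embryo 2. Smad6, an inhibitor that BMP signalling induces, passed the rule, 2.71-fold lower in embryo 2 (1.76 to 4.28), as 3.4% of all genes did. It had 0.53 TPM in embryo 2 and 1.58 TPM in embryo 1. With 29 counts in embryo 2 and 87 in embryo 1, Smad6 met the filter mostly through embryo 1. Smad7 of the same list, named after its values were seen, went the other way, with a ratio of 1.37 (1.14 to 1.64). The 2 highest genes of the list, the Id factors Id2 and Id4, had 223 and 170 TPM in embryo 2 and 200 and 166 TPM in embryo 1. In the oculomotor and red nucleus list of 6 genes, 4 had a ratio above 1, beside 50.4% of all genes. The median log2 ratio was 0.35, and -0.01 over the 4 with at least 100 counts. None passed the rule, and Pou4f1 had 46.7 TPM in embryo 2 and 82.1 TPM in embryo 1.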
